A study of Mus musculus with 24 samples.

Results

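The chemokine genes described here are 7 members of the CXC family, Cxcl1, Cxcl2, Cxcl9, Cxcl10, Cxcl12, Cxcl14 and Cxcl16, together with fractalkine, Cx3cl1. They were taken by gene symbol from a table of 28450 features measured by RNA sequencing of mouse kidney, and all 8 symbols were found once. The C57BL/6 mice fell into 4 groups, with 6 libraries in each: NLPR3-/- mice (the labels' spelling of the Nlrp3 knockout, KO) given glyoxylate acid (Gly), wild-type (WT) mice given Gly, KO mice given saline, and WT mice given saline. Gly was given at 75 mg/kg per day in 200 µl into the peritoneum on days 1 to 7, saline was given by the same route, and the kidneys were taken after 7 days. The age and sex of the mice and the way the knockout was made are not stated, and the labels do not say whether each library came from a separate mouse, so the p-values measure the spread between libraries, which may be technical. The labels place the members in no class. They are described below as neutrophil-attracting (Cxcl1, Cxcl2), interferon-induced (Cxcl9, Cxcl10) and constitutive (Cxcl12, Cxcl14, Cxcl16, Cx3cl1).

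Chemokines are small secreted proteins that direct the movement of leukocytes through G protein-coupled receptors. CXCL1 and CXCL2 act on CXCR2 of neutrophils and are induced through NF-κB by interleukin-1 and tumor necrosis factor, whereas CXCL9 and CXCL10 are induced by interferons and act on CXCR3 of activated T cells and NK cells. CXCL12 is made by stromal and endothelial cells in the absence of inflammation and acts on CXCR4. CXCL16 and fractalkine are unusual in being made as transmembrane proteins, which ADAM10 and ADAM17 can release from the cell surface, and they act on CXCR6 and CX3CR1. NLRP3 is the sensor of an inflammasome that activates caspase-1 and with it interleukin-1β, and glyoxylate is a precursor of oxalate, whose calcium salt forms crystals in the kidney.

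Levels are in FPKM, which divides the fragments of a gene by transcript length and library size, so that levels of different genes can be set side by side. The depth behind them is unknown. Per library the FPKM summed to between 439749 and 539018. Markers of the proximal tubule, the defining cell of the kidney cortex, summed to between 1510 and 3790 FPKM in every library. Nlrp3 itself ranged from 0.119 to 0.144 FPKM in KO Gly libraries and from 0.361 to 0.896 FPKM in WT Gly libraries; under saline it was at most 0.182 FPKM in KO and 0.0886 FPKM in WT libraries, too low to check those labels. Transcripts of 4 Y-linked genes summed to at most 0.0852 FPKM in KO saline libraries 1, 2, 3, 5 and 6. They summed to 33.1 FPKM in KO saline library 4 and to between 27.1 and 48.7 FPKM in the other 18 libraries. Genotype under saline, and treatment in KO, therefore cannot be fully told apart from the lack of these transcripts. The interaction of genotype and treatment rests on the same KO saline libraries. WT Gly library 1 had 8.74% of its FPKM in ribosomal protein genes and WT Gly library 5 had 5.64%, against at most 4.92% in the other WT Gly libraries. Class means, shares of the members' sum and increases in mean FPKM use all libraries. For gene lists and members other than Cxcl9, tests that rest on KO saline are also given without those 5 KO saline libraries. That fit is named the reduced fit below. It keeps 1 KO saline library, assumed to vary like the other groups. A call missing from it does not show that a difference was lost. The members' calls are also given without WT Gly libraries 1 and 5. Few features were called in the reduced fit: 4.62% of the 13020 tested features were higher with Gly in KO, against 23.7% with all libraries. The interaction of genotype and treatment was called lower for 0.0691%, against 20.3% with all libraries.

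The sequences that precede the genes are shown for the neutrophil-attracting and the interferon-induced members, whose induction through NF-κB and interferon signalling is known to act at sites of this kind. Each is the 250 bases before the gene's start in RefSeq, build GRCm38.p6, written 5′ to 3′ on the gene's strand. They lie at chr5:90890995-90891244 (plus strand, Cxcl1), chr5:90903649-90903898 (plus strand, Cxcl2), chr5:92328080-92328329 (minus strand, Cxcl9) and chr5:92348890-92349139 (minus strand, Cxcl10). Capitals mark matches to the κB consensus, the site bound by NF-κB, or to the interferon-stimulated response element, searched as GAAA, any 2 bases and GAAA again.
Cxcl1: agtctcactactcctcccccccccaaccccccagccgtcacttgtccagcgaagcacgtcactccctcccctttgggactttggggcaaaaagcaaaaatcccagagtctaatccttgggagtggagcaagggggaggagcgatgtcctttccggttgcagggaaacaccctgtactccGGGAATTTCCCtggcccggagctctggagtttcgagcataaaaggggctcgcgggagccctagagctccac
Cxcl2: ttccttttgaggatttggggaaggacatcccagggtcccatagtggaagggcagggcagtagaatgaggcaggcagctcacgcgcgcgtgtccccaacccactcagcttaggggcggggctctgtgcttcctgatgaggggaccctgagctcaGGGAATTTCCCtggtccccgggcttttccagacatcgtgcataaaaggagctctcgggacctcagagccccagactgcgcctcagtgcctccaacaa
Cxcl9: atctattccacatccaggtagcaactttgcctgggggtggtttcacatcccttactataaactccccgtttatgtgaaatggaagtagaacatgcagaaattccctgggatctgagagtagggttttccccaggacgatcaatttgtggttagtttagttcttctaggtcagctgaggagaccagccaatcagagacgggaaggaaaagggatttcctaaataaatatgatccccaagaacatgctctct
Cxcl10: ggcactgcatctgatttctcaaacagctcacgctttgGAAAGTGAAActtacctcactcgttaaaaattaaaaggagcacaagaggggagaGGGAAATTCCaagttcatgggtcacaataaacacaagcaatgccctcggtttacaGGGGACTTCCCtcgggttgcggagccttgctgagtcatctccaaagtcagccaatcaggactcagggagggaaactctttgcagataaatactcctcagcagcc

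Cxcl1 and Cxcl2 hold the same run GGGAATTTCCC, at bases 71 to 61 before the start of Cxcl1 and at bases 97 to 87 before the start of Cxcl2. That exact run was found in 14 of 32817 windows of the same length before RefSeq genes, 0.0427%, and it contains a κB match on each strand that overlap each other. The Cxcl10 window holds GGGAAATTCC at bases 159 to 150, an overlapping pair of κB matches at bases 104 to 94, and the interferon element GAAAGTGAAA at bases 213 to 204. On both strands together, the κB consensus was matched in 7.25% and the interferon element in 2.97% of all windows. The Cxcl9 window held none of these, nor a match to TTCNNNGAA, the form of the gamma-activated site, which was matched in 7.01% of windows. Among the constitutive members, the Cxcl14 window held 1 match to the interferon element and 1 to the gamma-activated site, and those of Cxcl12 and Cx3cl1 held none of the motifs. Windows were found for 7 of the 8 members, without Cxcl16. A match describes the letters only and is not evidence of binding.

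The neutrophil-attracting members were nearly silent under saline and had the largest log2 differences between the Gly groups among the 7 tested members. Cxcl1 (ENSMUSG00000029380) ranged from 2.81 to 10.5 FPKM in KO Gly libraries, with a median of 6.34, and from 14.1 to 23.7 FPKM in WT Gly libraries, with a median of 16.7. Under saline it ranged from 0.0989 to 0.943 FPKM in KO libraries, with a median of 0.57, and from 0.154 to 0.465 FPKM in WT libraries, with a median of 0.318. Every Gly library therefore lay above every saline library, and every KO Gly library lay below every WT Gly library. The means were 6.4 ± 2.64 FPKM in KO Gly and 18.3 ± 4.12 FPKM in WT Gly kidneys (SD, n = 6 each), 0.351 times as high in KO. On the log2(FPKM + 1) scale this was a difference of -1.44 ± 0.20 (SE; limma, adjusted p = 1.49e-05).

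Cxcl2 (ENSMUSG00000058427) showed the same arrangement at a lower level. It ranged from 0.776 to 1.51 FPKM in KO Gly libraries, with a median of 1.05, and from 3.56 to 6.17 FPKM in WT Gly libraries, with a median of 4.62. All 6 KO saline libraries and 5 of the 6 WT saline libraries were listed at 0, and WT saline library 3 had 0.0506 FPKM. The Gly groups did not overlap, and the KO Gly mean of 1.07 ± 0.28 FPKM was 0.225 times the WT Gly mean of 4.74 ± 1.07 FPKM (SD, n = 6 each), the lowest such ratio among the 8 members. The log2 difference between KO Gly and WT Gly was -1.46 ± 0.10 (adjusted p = 2.68e-09). Cxcl2 reached 1 FPKM in 6 WT Gly and 3 KO Gly libraries. It was thus tested only because WT Gly was high, and nothing is read from this p-value.

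Both genes rose with Gly in each genotype. In KO kidneys the log2 difference between Gly and saline was 2.18 ± 0.20 for Cxcl1 (adjusted p = 2.11e-08) and 1.04 ± 0.10 for Cxcl2 (adjusted p = 6.92e-08), and in WT kidneys it was 3.86 ± 0.20 for Cxcl1 (adjusted p = 9.25e-14) and 2.49 ± 0.10 for Cxcl2 (adjusted p = 3.23e-15). The added 1 FPKM compresses such differences for genes near 0: as a ratio of mean FPKM, Cxcl1 was 11.2 times as high in KO Gly as in KO saline and 59.0 times as high in WT Gly as in WT saline. No ratio can be given for Cxcl2 against values of 0. The response in KO minus the response in WT, the interaction of genotype and treatment, was -1.67 ± 0.28 for Cxcl1 (adjusted p = 0.000182) and -1.45 ± 0.14 for Cxcl2 (adjusted p = 1.46e-06). Under saline alone the genotypes were not told apart: the log2 difference of KO from WT was 0.24 for Cxcl1 (95% interval -0.16 to 0.64, adjusted p = 0.485) and -0.01 for Cxcl2 (-0.22 to 0.20, adjusted p = 0.959). Both genes passed the filter on low values, at least 1 FPKM in at least 6 libraries, only through Gly libraries. A gene of this kind therefore had to differ between treatments to be tested. As given above, the filter also favoured WT Gly for Cxcl2, which bears on its interaction too. Cxcl1 and Cxcl2 are related copies, and how the authors' counting divided reads common to both is not stated.

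**Figure D1:**
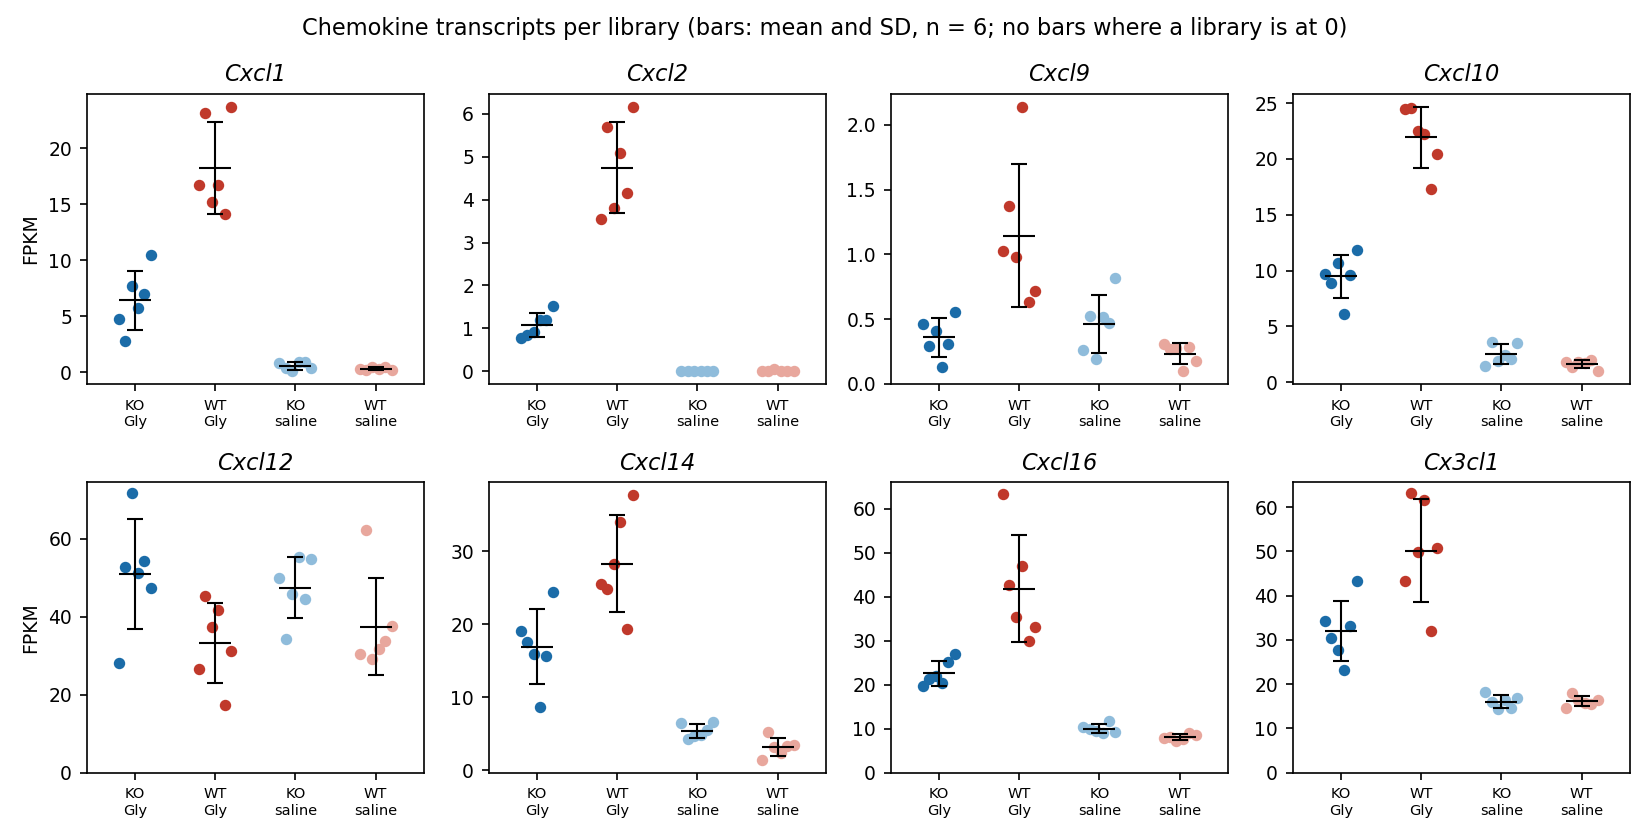
FPKM of the 8 chemokine genes (vertical axes, FPKM, each with its own scale) in KO Gly, WT Gly, KO saline and WT saline kidneys; each point is 1 library and bars are the mean and SD of 6 libraries, left out where a library is at 0. WT Gly libraries lie highest for Cxcl1, Cxcl2, Cxcl9, Cxcl10 and Cxcl16 with no overlap with KO Gly libraries, and Cxcl12 shows no separation of Gly from saline.

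The interferon-induced members differed from each other in the knockout. Cxcl10 (ENSMUSG00000034855) ranged from 6.07 to 11.8 FPKM in KO Gly libraries, with a median of 9.69, and from 17.3 to 24.6 FPKM in WT Gly libraries, with a median of 22.4. Under saline it ranged from 1.41 to 3.58 FPKM in KO libraries, with a median of 2.29, and from 1.0 to 2.03 FPKM in WT libraries, with a median of 1.78. The Gly libraries of each genotype lay above its saline libraries, and those of the genotypes did not overlap with each other. The KO Gly mean of 9.49 ± 1.96 FPKM was 0.433 times the WT Gly mean of 21.9 ± 2.76 FPKM (SD, n = 6 each), a log2 difference of -1.14 ± 0.15 (adjusted p = 1.12e-05). Its response to Gly was 1.60 ± 0.15 in KO (adjusted p = 4.87e-08) and 3.13 ± 0.15 in WT (adjusted p = 4.67e-14) on the log2 scale, an interaction of -1.53 ± 0.21 (adjusted p = 4.36e-05). KO saline and WT saline differed by 0.38 (95% interval 0.07 to 0.70), which did not pass the test over all features (adjusted p = 0.111).

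Cxcl9 (ENSMUSG00000029417) was the least abundant of the members under Gly, and reached 1 FPKM in 3 libraries, all of them WT Gly, so it did not pass the filter. It ranged from 0.131 to 0.559 FPKM in KO Gly libraries, with a median of 0.359, and from 0.633 to 2.14 FPKM in WT Gly libraries, with a median of 1.0. Under saline it ranged from 0.19 to 0.818 FPKM in KO libraries, with a median of 0.492, and from 0.0995 to 0.305 FPKM in WT libraries, with a median of 0.274. WT Gly libraries lay above every WT saline and every KO Gly library, whereas KO Gly and KO saline libraries overlapped. Exact two-sided permutation tests of 6 against 6 libraries, whose smallest possible p is 0.0022, were made for 5 comparisons. The mean was lower in KO Gly than in WT Gly by a difference of -0.784 FPKM (exact permutation p = 0.0022, adjusted p = 0.0054), and WT Gly exceeded WT saline by 0.91 FPKM (exact permutation p = 0.0022, adjusted p = 0.0054). KO Gly and KO saline differed by -0.102 FPKM (exact permutation p = 0.38, adjusted p = 0.38), and KO saline and WT saline by 0.228 FPKM (exact permutation p = 0.039, adjusted p = 0.065). When every feature above 0 in any library was admitted to the limma fit, the interaction of Cxcl9 was -0.86 ± 0.18 on the log2 scale (adjusted p = 0.00236).

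Of the 4 members called constitutive, Cxcl14, Cxcl16 and Cx3cl1 were measured in every saline library and yet rose with Gly in both genotypes, so the name holds for them only in the sense of a level at rest. Cxcl12 was the exception. Cxcl14 (ENSMUSG00000021508), made by epithelial and stromal cells, ranged from 8.65 to 24.5 FPKM in KO Gly libraries, with a median of 16.8, and from 19.3 to 37.7 FPKM in WT Gly libraries, with a median of 26.9. In saline libraries it ranged from 4.3 to 6.57 FPKM in KO, with a median of 5.16, and from 1.47 to 5.25 FPKM in WT, with a median of 3.32. Gly and saline libraries of the same genotype did not overlap, while the Gly groups did: 5 of the 6 KO Gly libraries lay below all WT Gly libraries. The mean was 16.9 ± 5.16 FPKM in KO Gly and 28.3 ± 6.65 FPKM in WT Gly kidneys (SD, n = 6 each), a log2 difference of -0.73 ± 0.20 (adjusted p = 0.00881). The rise with Gly was 1.45 ± 0.20 in KO (adjusted p = 8.82e-06) and 2.83 ± 0.20 in WT (adjusted p = 3.04e-11), with an interaction of -1.38 ± 0.29 (adjusted p = 0.00125).

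Cxcl14 was also the only member called between the genotypes under saline, higher in KO by 0.65 ± 0.20 on the log2 scale (adjusted p = 0.0425). Without the 5 KO saline libraries lacking Y-linked transcripts the difference was 0.52, and the 1 KO saline library left cannot decide the call. The call was lost when the values were rescaled by median-ratio size factors (0.58, adjusted p = 0.0614). It was also lost after quantile normalization (0.55, adjusted p = 0.0801) and with no filter on low values (0.65, adjusted p = 0.0765). It was also lost when any of WT saline libraries 1, 3, 4, 5 or 6, KO saline libraries 1, 2, 3, 5 or 6, WT Gly library 3 or KO Gly library 5 was left out singly, with differences of 0.5 to 0.7 (adjusted p from 0.0504 to 0.124). Under saline, 4 of 8 endothelial and 4 of 5 podocyte markers were higher in KO, and 1 of 7 fibroblast and pericyte markers was. The median differences of these 3 lists were 0.5, 0.59 and 0.31 with all libraries. In the reduced fit they were 0.09, 0.13 and 0.36 for the same markers. Their summed FPKM ranged, in KO saline and WT saline, over 113 to 200 and 86.4 to 107 for endothelial, 50.7 to 111 and 38 to 55.7 for podocyte, and 23.2 to 30.1 and 15.6 to 25 for fibroblast and pericyte markers. The part of these cells in the Cxcl14 difference was not tested. Of all features tested, 6.92% were called higher in KO under saline, so 1 call among 7 tested members is near the background.

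Cxcl16 (ENSMUSG00000018920) ranged from 19.8 to 27.0 FPKM in KO Gly libraries, with a median of 21.6, and from 29.9 to 63.3 FPKM in WT Gly libraries, with a median of 39.0. Under saline it ranged from 8.93 to 11.7 FPKM in KO, with a median of 9.74, and from 7.23 to 9.06 FPKM in WT, with a median of 8.04. Gly libraries lay above saline libraries in each genotype, and the KO Gly libraries lay below all WT Gly libraries. The KO Gly mean of 22.6 ± 2.83 FPKM was 0.54 times the WT Gly mean of 41.9 ± 12.2 FPKM (SD, n = 6 each), a log2 difference of -0.82 ± 0.13 (adjusted p = 4.63e-05). Its responses were 1.10 ± 0.13 in KO (adjusted p = 5.46e-07) and 2.20 ± 0.13 in WT (adjusted p = 6.12e-13), and the interaction was -1.10 ± 0.18 (adjusted p = 0.000148).

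Fractalkine, Cx3cl1 (ENSMUSG00000031778), had the smallest log2 responses among the 6 tested members that rose. It ranged from 23.1 to 43.4 FPKM in KO Gly libraries, with a median of 31.8, and from 32.1 to 63.2 FPKM in WT Gly libraries, with a median of 50.3. Saline libraries ranged from 14.3 to 18.3 FPKM in KO, with a median of 16.2, and from 14.6 to 18.0 FPKM in WT, with a median of 16.0. The saline groups overlapped (log2 difference of KO from WT 0.00, 95% interval -0.28 to 0.27), every Gly library lay above them, and 3 of the 6 KO Gly libraries lay below all WT Gly libraries. The mean was 32.0 ± 6.87 FPKM in KO Gly and 50.1 ± 11.6 FPKM in WT Gly kidneys (SD, n = 6 each), a log2 difference of -0.62 ± 0.13 (adjusted p = 0.00131). Responses of 0.93 ± 0.13 in KO (adjusted p = 1.21e-05) and 1.55 ± 0.13 in WT (adjusted p = 6.79e-10) gave an interaction of -0.62 ± 0.19 (adjusted p = 0.019), which was not called after quantile normalization (-0.52, adjusted p = 0.059). In the reduced fit neither the interaction (-0.66, adjusted p = 0.43) nor the KO response (0.89, adjusted p = 0.0628) was called.

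Cxcl12 (ENSMUSG00000061353) did not follow the others. It ranged from 28.1 to 71.8 FPKM in KO Gly libraries, with a median of 52.0, and from 17.4 to 45.2 FPKM in WT Gly libraries, with a median of 34.3. Under saline it ranged from 34.4 to 55.3 FPKM in KO libraries, with a median of 47.9, and from 29.1 to 62.1 FPKM in WT libraries, with a median of 32.8. Gly and saline libraries overlapped in both genotypes, and 5 of the 6 KO Gly libraries lay above every WT Gly library, with KO Gly library 1 among the lower WT values. The difference between Gly and saline was 0.07 in KO (95% interval -0.38 to 0.51, adjusted p = 0.847) and -0.18 in WT (-0.62 to 0.26, adjusted p = 0.472). Relative to the median feature the WT value was lower: after median-ratio scaling it was -0.49 (adjusted p = 0.0259). The interaction was 0.25 ± 0.30 (95% interval -0.38 to 0.87, adjusted p = 0.584).

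KO Gly exceeded WT Gly for Cxcl12 by 0.61 ± 0.21 on the log2 scale (adjusted p = 0.0331), with means of 50.9 ± 14.0 FPKM in KO Gly and 33.2 ± 10.3 FPKM in WT Gly kidneys (SD, n = 6 each). This call lay near the threshold. Without WT Gly libraries 1 and 5 the difference was 0.35 (adjusted p = 0.192). The call was also lost when either of them, or any of KO Gly libraries 2, 3, 4 or 5, was left out singly, with differences of 0.45 to 0.6 (largest adjusted p = 0.0899). With the same difference it was not called when only the KO Gly and WT Gly libraries were fitted (adjusted p = 0.0829), with no filter on low values (adjusted p = 0.0625) or in the reduced fit (adjusted p = 0.054). Between the same groups, 5 of 7 proximal tubule and 2 of 5 podocyte markers were higher in KO, against 8.37% of all tested features, with sums of 2300 to 3290 FPKM in KO Gly and 1510 to 2180 FPKM in WT Gly libraries for the tubule list and of 48.2 to 79.7 and 34 to 58.8 FPKM for the podocyte list. None of 8 endothelial markers was called, with sums of 122 to 187 FPKM in KO Gly and 102 to 156 FPKM in WT Gly libraries. Their part in the Cxcl12 difference was not tested.

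**Figure D2:**
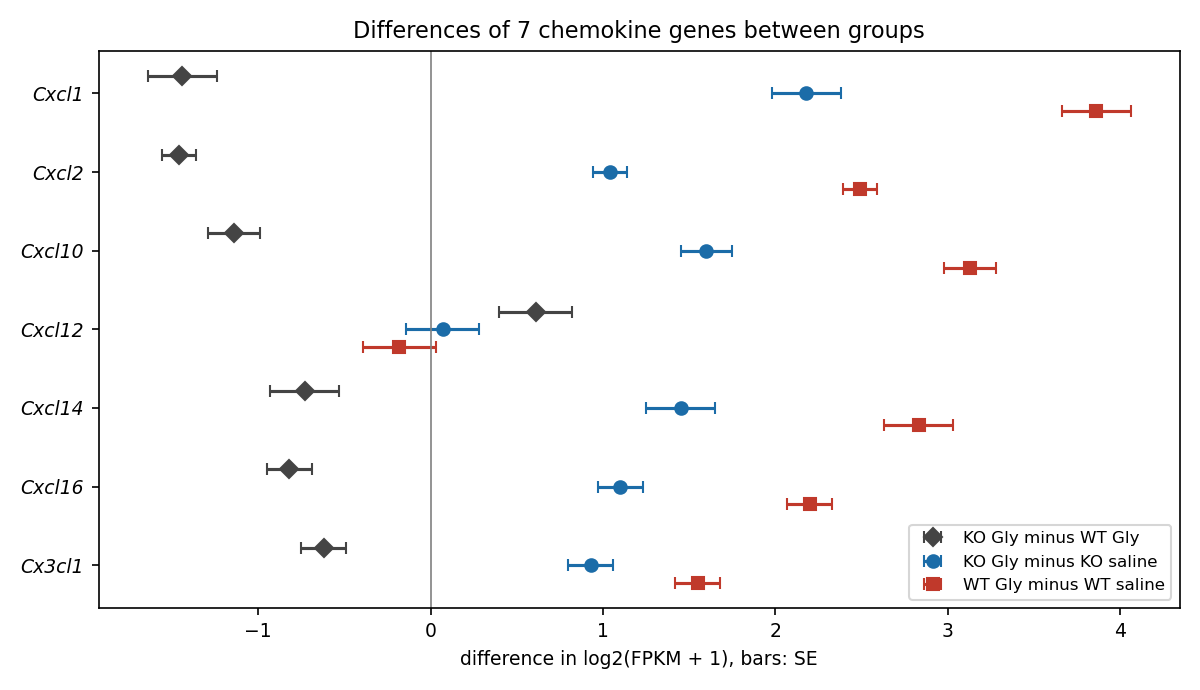
Differences on the log2(FPKM + 1) scale (horizontal axis) of the 7 tested chemokine genes for KO Gly minus WT Gly, KO Gly minus KO saline and WT Gly minus WT saline; points are limma estimates from 6 libraries per group and bars are SE. For 6 genes both responses to Gly are above 0, with the KO response the smaller, and KO Gly minus WT Gly is below 0; Cxcl12 has responses of 0.07 and -0.18 and the opposite sign between the Gly groups.

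The 5 members Cxcl10, Cxcl12, Cxcl14, Cxcl16 and Cx3cl1 reached 1 FPKM in all 24 libraries, so that the filter did not favour a treatment. Of these 5, 4 were higher with Gly in KO, against 23.7% of all tested features, and the same 4 were higher with Gly in WT, against 50.2%. In KO Gly against WT Gly, 4 of the 5 were lower and 1 was higher, against 21.4% and 8.37% of all tested features. The interaction was negative and called for 4 of the 5, against 20.3%. In the reduced fit the KO response was 1.57 for Cxcl10, 1.58 for Cxcl14, 1.24 for Cxcl16, 0.89 for Cx3cl1 and -0.17 for Cxcl12. The median over all features there was 0.19. With 1 KO saline library that fit cannot decide the counts for the KO response and the interaction. The comparisons have libraries in common, KO Gly or WT Gly, and are not independent of one another. The median of all tested features was 0.12 for the KO response, 0.26 for the WT response, -0.06 for KO Gly against WT Gly and -0.16 for the interaction, and each lay within 0.02 of 0 after median-ratio scaling. Over all features the WT responses called were 6537 higher and 1728 lower, and after that scaling 3771 higher and 3685 lower, while the 6 tested members that rose kept differences of 1.24 or more in WT under every alternative tried. The libraries of KO Gly and WT Gly did not overlap, with KO lower, for 2 of these 5, Cxcl10 and Cxcl16, against 6.3% of all tested features. Nor did they overlap for Cxcl1 and Cxcl2, which passed the filter through Gly libraries, or for Cxcl9, below it. Gly libraries lay above the saline libraries of their genotype for 4 of the 5 members measured in all libraries, in KO (15.5% of all tested features) and in WT (31.3%).

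In the 6 members that rose, KO kidneys had less of an increase than WT kidneys. The increase in mean FPKM from Gly in KO, expressed as a share of that in WT, was 22.5 ± 3.18% for Cxcl2, 32.5 ± 6.79% for Cxcl1, 34.4 ± 4.75% for Cxcl10, 37.4 ± 6.6% for Cxcl16, 46.0 ± 9.94% for Cxcl14 and 46.9 ± 10.7% for Cx3cl1 (SE by error propagation, 6 libraries per group). For Cxcl9 the KO increase was -0.102 ± 0.11 FPKM and the WT increase 0.91 ± 0.228 FPKM (SE), so none of the WT increase was detected in KO. Most neighbours in this order differ by less than their errors, and the order was not tested. The KO increases use all 6 KO saline libraries, 5 of which lacked Y-linked transcripts, and were not recomputed without those 5. Compared with WT saline kidneys, KO Gly kidneys still had more of 6 members: KO Gly minus WT saline was 2.42 for Cxcl1, 1.02 for Cxcl2, 1.98 for Cxcl10, 2.09 for Cxcl14, 1.37 for Cxcl16 and 0.92 for Cx3cl1 on the log2 scale (adjusted p at most 7.7e-06), where 38.9% of all features were called higher. For Cxcl12 this difference was 0.43 (95% interval -0.01 to 0.87, adjusted p = 0.102), and for Cxcl9 it was 0.126 FPKM (exact permutation p = 0.1, adjusted p = 0.13).

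The relative level of the classes depended on the scale. The mean log2(FPKM + 1) of Cxcl1 and Cxcl2 minus that of Cxcl9 and Cxcl10 was 0.02 ± 0.34 in KO Gly, 0.58 ± 0.33 in WT Gly, -0.84 ± 0.35 in KO saline and -0.65 ± 0.09 in WT saline libraries (SD, n = 6 each). On this scale the interferon-induced pair was the higher in every saline library and the neutrophil-attracting pair in every WT Gly library, with differences of 0.28 to 1.13, but the scarce Cxcl9 lowers the mean of its pair. KO Gly libraries lay on both sides of equality, from -0.44 to 0.44, and overlapped with WT Gly. By summed FPKM, a measure chosen after the values were seen, the neutrophil-attracting pair was the higher in 1 of 6 KO Gly, 3 of 6 WT Gly, 0 of 6 KO saline and 0 of 6 WT saline libraries. Its median sum was 7.53 FPKM in KO Gly and 21.1 FPKM in WT Gly libraries, and that of the interferon-induced pair was 10.1 FPKM in KO Gly and 24 FPKM in WT Gly libraries. Cxcl1 alone minus Cxcl10 alone was -0.56 ± 0.49 in KO Gly, -0.27 ± 0.29 in WT Gly, -1.15 ± 0.57 in KO saline and -1.0 ± 0.11 in WT saline on the log2(FPKM + 1) scale (SD, n = 6 each), with Cxcl1 the higher in 1 WT Gly library. The order of the classes under Gly was therefore not the same on each scale. On the scale of class means, against the constitutive members, the neutrophil-attracting pair stood at -2.91 ± 0.31 in KO Gly, -1.85 ± 0.30 in WT Gly, -3.63 ± 0.15 in KO saline and -3.43 ± 0.28 in WT saline. The interferon-induced pair kept a narrower span, at -2.93 ± 0.13 in KO Gly, -2.44 ± 0.15 in WT Gly, -2.79 ± 0.32 in KO saline and -2.78 ± 0.30 in WT saline.

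**Figure D3:**
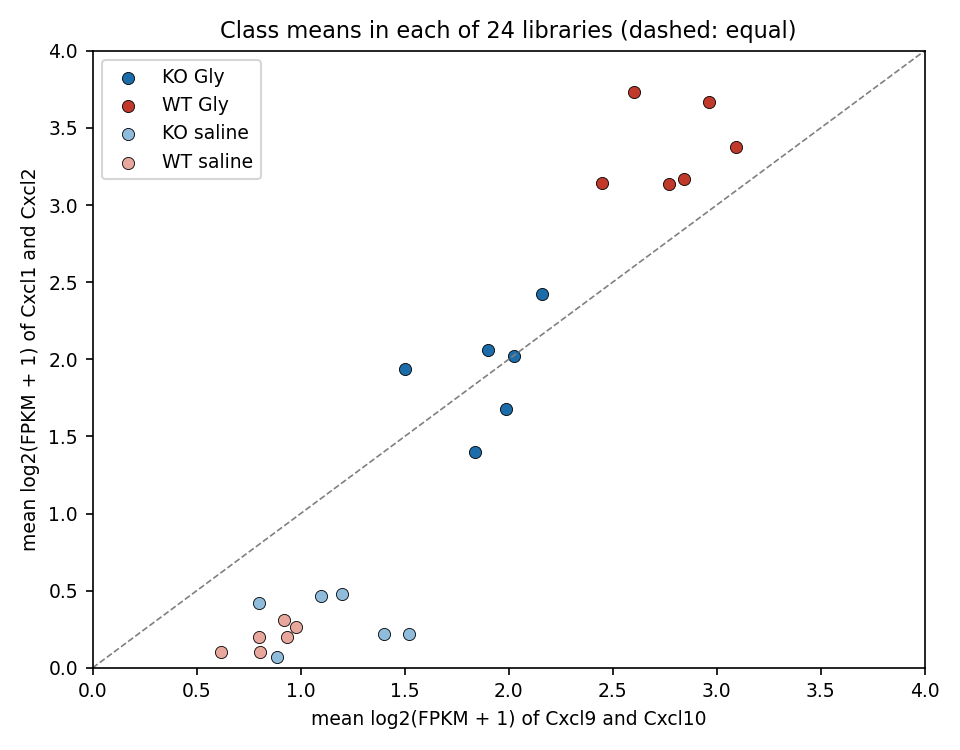
Mean log2(FPKM + 1) of Cxcl1 and Cxcl2 (vertical axis) against that of Cxcl9 and Cxcl10 (horizontal axis), 1 point per library for the 4 groups; the dashed line marks equal values. Saline libraries lie below the line, WT Gly libraries above it by 0.28 to 1.13, and KO Gly libraries on both sides; by summed FPKM the Cxcl1 and Cxcl2 pair is the higher in 3 of 6 WT Gly libraries.

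The order of the members by level changed with treatment. Cxcl12 was the most abundant member in KO Gly, KO saline and WT saline kidneys, and Cx3cl1 was the most abundant in WT Gly kidneys. In KO saline and WT saline the order was Cxcl12, Cx3cl1, Cxcl16, Cxcl14, Cxcl10, followed by Cxcl1 and Cxcl9, whose ranges overlapped, and Cxcl2; Cxcl14 and Cxcl10 overlapped in WT saline as well. Under Gly the neighbours from the top down to Cxcl10 and Cxcl1 all overlapped in range in both genotypes, and Cxcl2 and Cxcl9 came last, apart from the rest. The 8 members summed to means of 140 FPKM in KO Gly, 200 FPKM in WT Gly, 82.4 FPKM in KO saline and 67.1 FPKM in WT saline kidneys. Cxcl12 made up 36.4% of that sum in KO Gly, 16.4% in WT Gly, 57.3% in KO saline and 55.0% in WT saline kidneys. Cxcl10 made up 6.77%, 11.1%, 3.08% and 2.55% in KO Gly, WT Gly, KO saline and WT saline, and Cxcl1 made up 4.5%, 9.23%, 0.684% and 0.495%. Cx3cl1 held a steadier share, 23.0% in KO Gly, 25.0% in WT Gly, 19.6% in KO saline and 24.6% in WT saline.

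**Figure D4:**
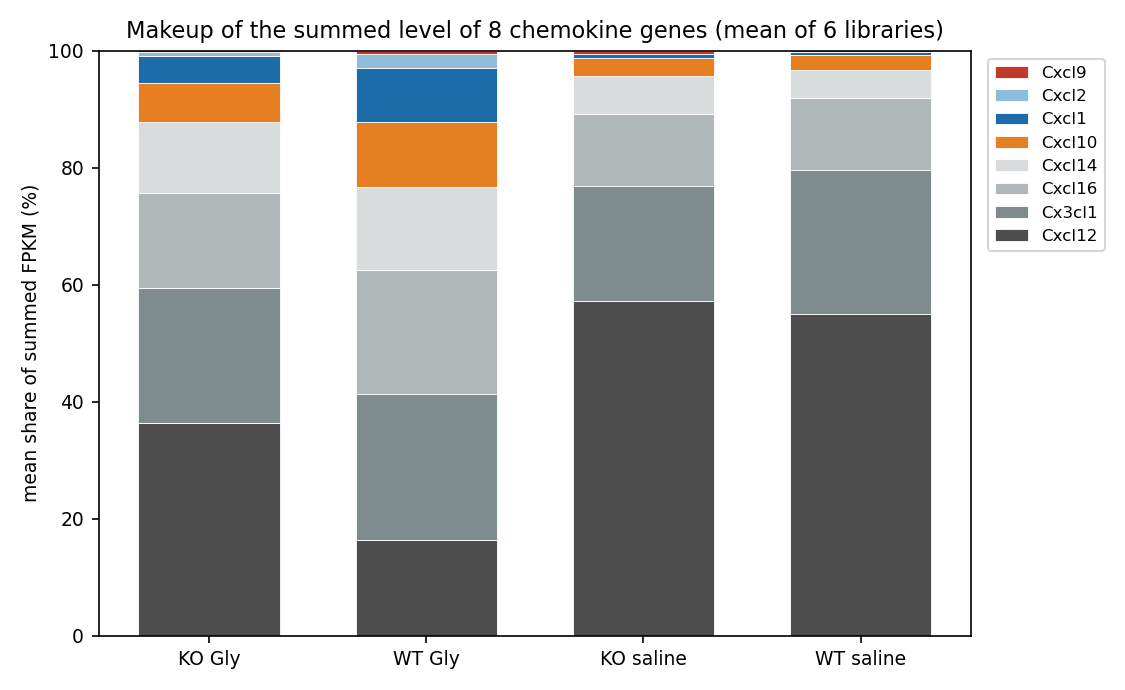
Mean share (vertical axis, percent) of each chemokine gene in the summed FPKM of all 8 in KO Gly, WT Gly, KO saline and WT saline kidneys, 6 libraries each. Cxcl12 falls to 16.4% of the sum in WT Gly kidneys, against 55.0% in WT saline kidneys, and stands at 36.4% in KO Gly kidneys.

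Within a group, single libraries tended to be high or low for several members. KO Gly library 6 was the highest of its group for every member other than Cxcl12. WT Gly library 5 was the lowest of its group for every member other than Cxcl2. KO Gly library 4 was the lowest of its group for Cxcl9, Cxcl10, Cxcl14 and Cx3cl1. Leaving out WT Gly libraries 1 and 5 kept the calls of the other 6 tested members in the KO Gly and WT Gly comparison. In the reduced fit the interaction was called for Cxcl2 (-1.45, adjusted p = 0.0326) and Cxcl10 (-1.55, adjusted p = 0.0326) and not for Cxcl1 (-2.01, adjusted p = 0.0776), Cxcl16 (-0.96, adjusted p = 0.192) or Cxcl14 (-1.25, adjusted p = 0.293), nor, as given above, for Cx3cl1.

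Most receptors of these chemokines were scarce in whole kidney. Of 8 receptor genes, Cxcr4, Ackr3 and Cx3cr1 passed the filter. Cx3cr1, the fractalkine receptor of monocytes and macrophages, ranged from 2.42 to 3.83 FPKM in KO Gly and from 3.26 to 7.85 FPKM in WT Gly libraries, and from 0.572 to 1.71 FPKM in KO saline and from 0.354 to 0.631 FPKM in WT saline libraries. It rose with Gly by 1.11 in KO (adjusted p = 7.58e-06) and by 1.95 in WT (adjusted p = 1.39e-10) on the log2 scale, and KO Gly differed from WT Gly by -0.55 (adjusted p = 0.00973). Only 1 saline library reached 1 FPKM, so Cx3cr1 passed the filter through Gly libraries. Its KO response was 1.26 in the reduced fit (adjusted p = 0.0121). Ackr3, a scavenging receptor for CXCL12, averaged 19.2 ± 3.97 FPKM in KO Gly and 27.5 ± 5.95 FPKM in WT Gly kidneys (SD, n = 6 each; log2 difference -0.49, adjusted p = 0.0106). Cxcr4 averaged 2.66 ± 0.654 FPKM in KO Gly and 3.35 ± 0.966 FPKM in WT Gly kidneys (SD, n = 6 each; log2 difference -0.24, adjusted p = 0.178), and rose with Gly in WT (0.75, adjusted p = 3.48e-05), with a KO value of 0.30 (adjusted p = 0.101). Cxcr2, Cxcr3 and Cxcr6 stayed under 1 FPKM in every library, Ackr1 reached at most 0.124 FPKM, and Cxcr1 was listed at 0 in all but WT Gly libraries, where it reached 0.0405 FPKM. Cxcr3 ranged from 0.0631 to 0.321 FPKM in KO Gly, from 0.205 to 0.965 FPKM in WT Gly, from 0.0956 to 0.591 FPKM in KO saline and from 0.059 to 0.187 FPKM in WT saline libraries, and Cxcr2 from 0.0691 to 0.253 FPKM in KO Gly and from 0.0983 to 0.403 FPKM in WT Gly libraries; neither was tested.

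**Figure D5:**
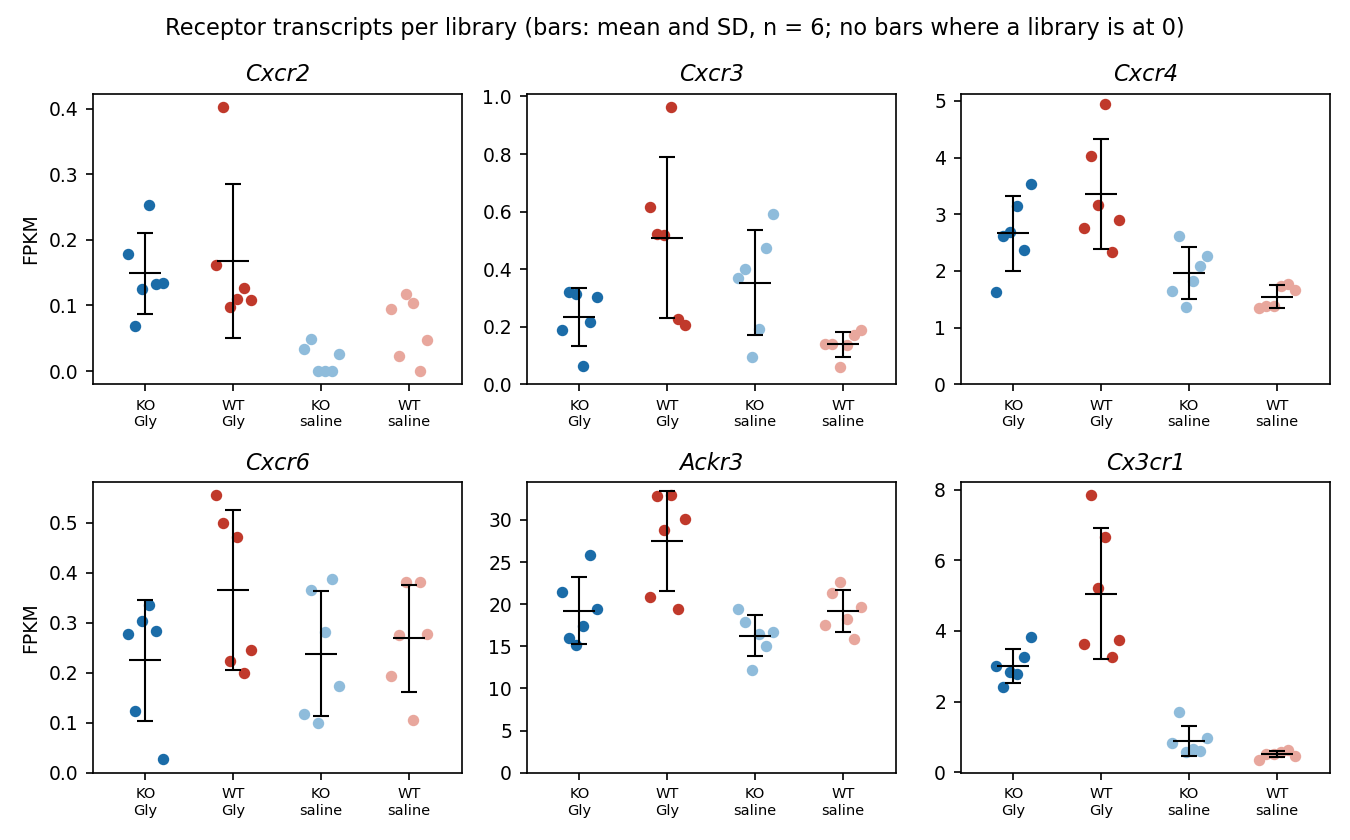
FPKM of 6 chemokine receptor genes (vertical axes, FPKM, each with its own scale) in KO Gly, WT Gly, KO saline and WT saline kidneys; each point is 1 library and bars are the mean and SD of 6 libraries, left out where a library is at 0. Cxcr2, Cxcr3 and Cxcr6 lie under 1 FPKM throughout, and Cx3cr1 lies at 2.42 FPKM or more in all Gly libraries and at 1.71 FPKM or less in all saline libraries.

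Among 5 genes for proteases and binding partners of these chemokines, 3 rose with Gly in KO and 4 in WT, against 23.7% and 50.2% of all tested features. The reduced fit called 1 of the 5 higher with Gly in KO, against 4.62%. Sdc1 and Sdc4, syndecans whose heparan sulfate chains bind chemokines, differed between KO Gly and WT Gly by -0.32 (adjusted p = 0.0466) and -0.27 (adjusted p = 0.00248); in that fit Sdc1 was not called (-0.32, adjusted p = 0.0737). Adam10 and Adam17, the proteases that release CXCL16 and fractalkine, differed there by -0.10 (adjusted p = 0.522) and -0.21 (adjusted p = 0.163). Dpp4, a peptidase that shortens CXCL10 and CXCL12 at their amino end, was higher in KO Gly (16.9 ± 3.18 FPKM) than in WT Gly kidneys (10.9 ± 1.92 FPKM; SD, n = 6 each; log2 difference 0.58, adjusted p = 0.00177). It was higher in KO under saline too, with means of 18.9 FPKM in KO saline and 12.4 FPKM in WT saline (log2 difference 0.57, adjusted p = 0.00637). In the reduced fit this difference was 0.15. Dpp4 was not called with Gly in KO (-0.16, adjusted p = 0.385) or WT (-0.18, adjusted p = 0.243).

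Of 8 other CXC ligand genes, Cxcl5, Cxcl17 and Pf4 passed the filter, and all 3 were called higher with Gly in both genotypes, against 23.7% of all tested features in KO and 50.2% in WT. No saline library reached 1 FPKM for Cxcl5 or Cxcl17 and 2 did for Pf4, so that they passed the filter through Gly libraries and nothing is read from this count. In the reduced fit the KO response was called for Cxcl17 (1.40, adjusted p = 0.0149) and not for Cxcl5 (0.65, adjusted p = 0.0746) or Pf4 (0.73, adjusted p = 0.231). Cxcl5, a further ligand of CXCR2, ranged from 0.328 to 1.15 FPKM in KO Gly and from 1.11 to 1.98 FPKM in WT Gly libraries (log2 difference -0.67, adjusted p = 4.51e-05). It reached 1 FPKM in 6 WT Gly libraries and 1 KO Gly library. Cxcl5 was thus tested only because WT Gly was high, and nothing is read from this p-value. Pf4, a platelet and macrophage chemokine, ranged from 1.65 to 4.55 FPKM in KO Gly and from 3.89 to 9.3 FPKM in WT Gly libraries (log2 difference -0.99, adjusted p = 0.000557). Cxcl17, a mucosal chemokine, ranged from 1.12 to 2.56 FPKM in KO Gly and from 1.45 to 4.07 FPKM in WT Gly libraries and was not called between them (-0.27, adjusted p = 0.19). Cxcl3, Cxcl11, Cxcl13, Cxcl15 and Ppbp were below the filter.

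Of 11 tested genes of the NF-κB pathway, through which Cxcl1 and Cxcl2 are induced, 9 rose with Gly in KO and 10 in WT. The shares of all tested features were 23.7% and 50.2%. Il1b reached 1 FPKM in 6 WT Gly, 4 KO Gly and no saline libraries, so it had to be high under Gly to be counted. Of the 11, 7 were lower in KO Gly than in WT Gly, against 21.4%, and none was higher. The reduced fit called 5 of the 11 higher with Gly in KO, against 4.62% of all features. It called 6 lower in KO Gly than in WT Gly, against 18.5%. The median differences were 0.55 in KO, 1.08 in WT and -0.47 between the Gly groups, beside medians over all features of 0.12, 0.26 and -0.06. Relb, which pairs with the product of Nfkb2, ranged from 3.77 to 7.28 FPKM in KO Gly and from 7.74 to 14.3 FPKM in WT Gly libraries, without overlap (log2 difference -0.92, adjusted p = 1.78e-05). Nfkb2 differed by -0.78 (adjusted p = 5.19e-05), Nfkb1 by -0.59 (adjusted p = 0.00073) and Rela by -0.53 (adjusted p = 1.63e-05). Tnf was below the filter.

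In the interferon pathway around Cxcl9 and Cxcl10, 6 of 11 tested genes rose and 1 fell with Gly in KO, 10 of 11 rose in WT, and 5 were lower in KO Gly than in WT Gly. Of all tested features, 23.7% were higher with Gly in KO, 50.2% were higher in WT and 21.4% were lower in KO Gly than in WT Gly. The interaction was called and negative for 8 of the 11, against 20.3%. In the reduced fit the median difference of the 11 was 0.6 with Gly in KO and -0.3 between KO Gly and WT Gly. The medians over all features in that fit were 0.19 and -0.06. The interaction had a median of -0.41 there, beside -0.08 over all features. With 1 KO saline library that fit cannot show whether the calls hold. Irf1, a transcription factor induced by interferon gamma, ranged from 7.5 to 12.3 FPKM in KO Gly and from 11.2 to 18.7 FPKM in WT Gly libraries, with responses of 0.75 in KO (adjusted p = 0.000198) and 1.89 in WT (adjusted p = 3.77e-11) and an interaction of -1.13 (adjusted p = 0.000274). For Irf1 in the reduced fit the KO response was 0.85 (adjusted p = 0.0564) and the interaction -1.04 (adjusted p = 0.162). The interferon gamma receptor genes Ifngr1 and Ifngr2 differed between KO Gly and WT Gly by -0.47 (adjusted p = 0.00432) and -0.68 (adjusted p = 1.12e-05). The gene that fell with Gly in KO was Jak2 (-0.30, adjusted p = 0.0209; -0.11, adjusted p = 0.756 in the reduced fit), named after its value was seen. Ifng and Ifnb1, the interferons themselves, averaged at most 0.0499 and 0.011 FPKM in any group.

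Markers of leukocytes moved with the members to different extents, and in whole kidney fewer cells of a type and less RNA per cell cannot be told apart. Of 10 macrophage and monocyte markers, 8 rose with Gly in KO and 10 in WT, and 9 were lower in KO Gly than in WT Gly. The shares of all tested features were 23.7%, 50.2% and 21.4%. Fcgr1, Adgre1 and Cx3cr1 had to be high under Gly to be counted, with at most 2 saline libraries at 1 FPKM. Fcgr1 reached it in 6 WT Gly and 3 KO Gly libraries, so for it the filter also favoured WT Gly. In the reduced fit the median difference of the 10 markers was 1.49 with Gly in KO and -0.98 between KO Gly and WT Gly. The medians over all features in that fit were 0.19 and -0.06, against those of the 10 markers. Their sums ranged from 133 to 395 FPKM in KO Gly, 245 to 711 FPKM in WT Gly, 36.7 to 71.6 FPKM in KO saline and 33.5 to 55.9 FPKM in WT saline libraries. The least abundant of them under saline, Fcgr1, averaged 0.241 FPKM in KO saline and 0.224 FPKM in WT saline, against 1.24 FPKM in KO Gly and 3.47 FPKM in WT Gly. The 9 neutrophil markers were low: their sums ranged from 2.59 to 17 FPKM in KO Gly, 2.72 to 13.1 FPKM in WT Gly, 0.395 to 1.39 FPKM in KO saline and 0.518 to 3.34 FPKM in WT saline libraries. S100a8 and S100a9, the 2 tested, rose with Gly in both genotypes. They passed the filter mainly through Gly libraries, and neither was called in KO in the reduced fit. Their differences between KO Gly and WT Gly were -0.14 (adjusted p = 0.739) and -0.06 (adjusted p = 0.923). Csf3r, a neutrophil receptor gene below the filter and therefore not tested, averaged 0.603 ± 0.144 FPKM in KO Gly and 0.978 ± 0.273 FPKM in WT Gly kidneys (SD, n = 6 each). Of the other untested neutrophil markers, Mpo, Retnlg and Cxcr2 also had lower means in KO Gly. Ly6g, Elane and Mmp8 had higher means in KO Gly, so the untested markers had no common direction. Mpo and Elane, which encode granule proteins of neutrophils, were under 0.1 FPKM in every library. The number of neutrophils was not measured and is not read from these low values. T and NK cell markers, none of which passed the filter, summed to 1.05 to 2.28 FPKM in KO Gly and 2.46 to 6.66 FPKM in WT Gly libraries. Under saline the sums were 1.24 to 2.56 FPKM in KO and 0.655 to 1.48 FPKM in WT libraries. Taken singly, only Gzmb did not overlap between the Gly groups (0 to 0.0804 FPKM in KO, 0.14 to 0.536 FPKM in WT). These values are low and were not tested. Of 7 fibroblast and pericyte markers, 7 rose with Gly in both genotypes, against 23.7% of all features in KO and 50.2% in WT. In KO Gly 3 were lower than in WT Gly, against 21.4%. Lum and Postn passed the filter mainly through Gly libraries. In the reduced fit the median difference of the 7 was 1.17 with Gly in KO and -0.37 between KO Gly and WT Gly. Their sums were 76.8 to 203 FPKM in KO Gly and 100 to 259 FPKM in WT Gly libraries. Which cells the chemokine transcripts came from, and the part of these cell types in the differences, was not tested.

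The genes whose pattern over the 24 libraries was most like each member's were found among 12024 named genes by the root mean square difference of centred log2(FPKM + 1), a description that reflects the group means above all. For Cxcl1 these were Ankrd1 (0.33), Cyr61 (0.39) and C1qtnf5 (0.40), and for Cxcl2 they were Maff (0.21), Pdgfb (0.21) and Tlr2 (0.23). For Cxcl10 they were C1qc (0.29), a complement subunit made by macrophages, Tmsb10 (0.30) and Tubb2b (0.31). The nearest to Cxcl14 were the matrix genes Bgn (0.29), Loxl1 (0.29) and Sparc (0.33). Cxcl16 lay nearest to H2-DMa (0.15), a gene of antigen presentation, Plp2 (0.16) and Cnn2 (0.17), Cx3cl1 to Gpr153 (0.15), Ckap4 (0.16) and Fam111a (0.17), and Cxcl12 to Rasgef1b (0.24), Erbb2 (0.26) and Tcp11l2 (0.26). No gene was among the nearest 3 of more than 1 member.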

How the data were processed

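RNA of 24 kidney libraries was extracted with Trizol and made into libraries with the TruSeq RNA kit, per the labels' protocols. The authors deposited FPKM, 1 column a library, in a single table. Bowtie 0.12.2 and the builds mm8 and mm9 are named, with no role, in the submitters' processing notes; neither the FPKM program nor the annotation or strand setting is given in the sources used here. Among features averaging under 0.05 FPKM, at most 2.55% took 1 common ratio between libraries (bins of 0.01 log2), so no reads were recovered and depth is unknown.

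The values were analysed as log2(FPKM + 1) with limma 3.58.1 (trend) in R 4.3.3, in 1 fit of all 24 libraries with a mean per group. Tests covered the 13020 features that reached 1 FPKM in 6 or more libraries, and a call has a two-sided Benjamini-Hochberg adjusted p under 0.05 over all of them. Cxcl9, below that filter, had exact permutation tests on FPKM. Cxcl2 values of 0 give no ratio. The step was tested on simulated data. No 2 libraries held identical values. The members, the gene lists and the doubted libraries were chosen with earlier results of these data known. Beside the members, up to 4 genes per list were named. They had the smallest p and averaged at least 1 FPKM in the higher group. Adam10, genes named for how they passed the filter and genes below the filter are named as list members. In the interferon list, 1 gene is not reported by name here. Promoter sequences are from RefSeq, GRCm38.p6, which is not a build the notes name, so they were joined by symbol only. Other scalings, pseudocounts, filters, weights, a replicate block and the removal of libraries were tried as alternatives. The list counts and medians without the 5 KO saline libraries lacking Y-linked transcripts and the classes by summed FPKM were added after seeing the data.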

Additional observations from a re-analysis of the deposited data

Results flagged for a closer look

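The response of 6 members to Gly differed between the genotypes by the test of the difference itself. The KO response minus the WT response on the log2(FPKM + 1) scale was -1.67 for Cxcl1, -1.45 for Cxcl2, -1.53 for Cxcl10, -1.38 for Cxcl14, -1.1 for Cxcl16 and -0.62 for Cx3cl1, each smaller in KO. The largest adjusted p among them was that of Cx3cl1, 0.019, and 20.3% of all tested features were called lower in the same test. Cxcl1 and Cxcl2 passed the filter through Gly libraries alone, and for Cxcl2 the filter favoured WT Gly. Without the KO saline libraries lacking Y-linked transcripts, which leaves 1 KO saline library, the test was passed by Cxcl2 and Cxcl10 and not by Cxcl1 (adjusted p = 0.0776), Cxcl16 (0.192), Cxcl14 (0.293) or Cx3cl1 (0.43).

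In 2 of 31 sets of 6 libraries (1 member in 1 group), 1 library stood far from the other 5, and chance gives about 1 in 20 among sets with a spread. Cxcl12 was 62.1 FPKM in WT saline library 2, while the other WT saline libraries ranged from 29.1 to 37.6 FPKM. Without that library, KO Gly exceeded WT saline by 0.58 for Cxcl12 (limma, adjusted p = 0.0249), against 0.43 with it (adjusted p = 0.102). Cxcl2 was 0.0506 FPKM in WT saline library 3 and listed at 0 in the other 5, so that any value above 0 would stand apart and the chance rate does not apply.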

How the results depend on the processing

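The depth behind the FPKM values is unknown, so small values such as those of Cxcl9 and Cxcl2 carry an error that cannot be stated. Each difference was recomputed under other scalings, pseudocounts, filters, weights and fits and without single libraries. Cxcl1, Cxcl2, Cxcl10, Cxcl14 and Cxcl16 kept their calls for both responses to Gly and for KO Gly against WT Gly under all of these. Cxcl2 has no value under the filter of 5 FPKM. Its call between the Gly groups is not read, since the filter favoured WT Gly. Over all single values, 1485 alternatives kept direction and side of the threshold, 32 lost a call, 11 gained one and 13 changed sign, none of them called. The 1485 include comparisons of groups that kept all their libraries when another group lost one. There the difference could not change, only the shared spread, so the tally overstates how stable the results are. The count of members called between KO saline and WT saline, 1, was 0 after median-ratio scaling, quantile normalization or no filter. It was 2 with only the groups of the contrast or without WT Gly libraries 1 and 5, 3 with array weights, and 0 to 1 without single libraries. Without the KO saline libraries lacking Y-linked transcripts, the 1 KO saline library left cannot decide this count. The count for the interaction, 6, was 2 without the KO saline libraries lacking Y-linked transcripts. Cxcl12 in KO Gly against KO saline changed sign to -0.08 after median-ratio scaling, -0.04 after quantile normalization and -0.17 without the libraries lacking Y-linked transcripts, with a range of -0.04 to 0.22 without single libraries; without WT Gly libraries 1 and 5 it was 0.09 in WT Gly against WT saline and -0.02 in the interaction. Cx3cl1 in KO saline against WT saline was 0.01 with array weights, 0.04 without the libraries lacking Y-linked transcripts and -0.04 to 0.03 without single libraries. Cxcl9 kept its direction in all and its calls in WT Gly against WT saline and KO Gly against WT Gly (adjusted p at most 0.024). Without KO Gly library 4 it was called in KO Gly against WT saline (0.172 FPKM, exact permutation test, adjusted p = 0.014). Without KO saline library 1 or 3 it was called in KO saline against WT saline (0.269 and 0.283 FPKM, same test, adjusted p = 0.036 each). Cxcl9 was not refitted without the KO saline libraries lacking Y-linked transcripts. The causes were not tested. Replicate numbers did not pair the libraries: same-numbered libraries of different groups had a median correlation of deviations of -0.02, and 2 of 24 were closest to their own number. With the replicate block the counts of members called stayed at 6 for KO Gly against KO saline, 6 for WT Gly against WT saline, 7 for KO Gly against WT Gly, 1 for KO saline against WT saline, 6 for the interaction and 6 for KO Gly against WT saline.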
